A study of Sus scrofa with 13 samples.

Results

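The genes described here are the subunits of the hypoxia-inducible factors (HIF) and the enzymes and adaptor that make them respond to oxygen. They were taken by gene symbol and number 10 of the 27339 gene rows in the count tables: HIF1A, EPAS1, HIF3A, ARNT, ARNT2, EGLN1, EGLN2, EGLN3, HIF1AN and VHL. What was measured is 5-hydroxymethylcytosine (5hmC), which TET dioxygenases make from methylated cytosine, in the form of sequenced DNA fragments captured with an anti-5hmC antibody. It is a mark on the DNA of these genes and not their RNA or protein. The cells were mesenchymal stem cells, cultured from the abdominal fat of domestic female pigs fed a 2% high-cholesterol diet, and taken 3 weeks after a coil had been placed to narrow 1 renal artery. Hypoxia, with 6 libraries, was culture in 1% oxygen for 48 hours, and normoxia, also with 6, was culture in 20% oxygen. Both groups share the diet, the stenosis and the culture in platelet lysate, and no cells from healthy pigs are among them. The library titles carry the numbers 110, 16, 21, 33, 49 and 4, each found once per group. The labels do not say what a number stands for, so every p-value below reflects only how much these particular libraries vary, and that variation may be technical.

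In mammals HIF is a dimer of an oxygen-labile alpha subunit and a stable beta subunit. With oxygen present, the EGLN prolyl hydroxylases mark the alpha subunit, the VHL protein binds the marked form and it is degraded. The asparaginyl hydroxylase HIF1AN (also called FIH) separately blocks the binding of coactivators. Without oxygen these enzymes slow down, the dimer forms and its target genes are transcribed. Among the targets are EGLN3 and EGLN1, which close a negative feedback loop. The EGLN enzymes, HIF1AN and the TET enzymes that make 5hmC all belong to the same family of dioxygenases, which use iron and oxoglutarate.

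Each library had 15569948 to 27428482 reads. The counting assigned 1.69 to 2.89% of them to genes, the least in normoxia 21. Its counted feature is not given, so whether introns were included is not known. Gene reads numbered 353379 to 623108 in the hypoxia libraries and 263578 to 714002 in the normoxia libraries, the fewest in normoxia 21. Levels are given as CPM, counts per 1e+06 gene reads after TMM scaling, and 3 reads in a library correspond to 5.44 to 9.27 CPM in hypoxia and 4.62 to 14.5 CPM in normoxia. The counts are not per gene length, so levels of different genes are not ranked against each other. Of the 10 genes, 9 had a read in some library, against 92.7% of all gene rows. The filter on low counts, 10 reads scaled to library size in enough libraries to form a group, was passed by 7 of the 10, against 43.4% of all gene rows. The labelled cell type cannot be checked from 5hmC, which does not report RNA. As values only, the 5 adipocyte marker genes summed to 220.6 to 439 CPM in hypoxia and 122 to 266 CPM in normoxia. Only ADIPOQ of these 5 passed the count filter, with 240 ± 77.1 CPM in hypoxia and 160.0 ± 56.9 CPM in normoxia (SD, n = 6 each), higher in hypoxia in 5 of 6 numbers. The 8 stromal markers summed to 903 to 1219 CPM in hypoxia and 840.3 to 1509 CPM in normoxia, the 5 endothelial markers to 404 to 573 and 305 to 536 CPM, and the 5 immune markers to 365 to 494 and 306 to 488 CPM. No marker was at 0 in all libraries, none passed the test, and their part in the results below was not tested.

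Hypoxia was set against normoxia at the genes of the oxygen-sensing pathway itself. EGLN3, the prolyl hydroxylase gene known as a HIF target, had more 5hmC reads in hypoxia in 6 of 6 title numbers. The log2 fold changes of the other 6 genes that could be tested lay between -0.38 and 0.23, without or with the pairing by title number. With Benjamini-Hochberg adjustment over the 11868 tested genes, edgeR's quasi-likelihood test called no member and no other gene (0%). At an unadjusted p under 0.05 it had 324 of these genes. DESeq2's Wald test was run without the count filter and also called 0, with 512 of 25337 genes at that p. Without the filter, edgeR's test had 694 of 25337 genes at that p. With the title number as a block, so that each hypoxia library is set against its own normoxia library, 4 genes passed (0.0337%), none of them a member. Of the 7 tested members, EGLN3 alone had an unadjusted p under 0.05 in either fit, as did 2.73% of all tested genes without and 7.09% with the block. The genes with such a p that were higher in hypoxia made up 0.918% of those tested without and 2.6% with the block, and those lower 1.81 and 4.49%. This split turned under another scaling: with library size alone, 159 genes were higher against 123 lower in the unblocked fit, and 468 against 371 in the blocked fit. The log2 fold change was above 0 at 4 of the 7 and below it at 3 in both fits, and its median over the 7 was 0.06 without and 0.13 with the block. Over all tested genes 43.4% were above 0 without and 46.6% with the block, and the median was -0.04 without and -0.02 with it. No member's groups were without overlap, as was the case at 0.101% of tested genes.

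**Figure D1:**
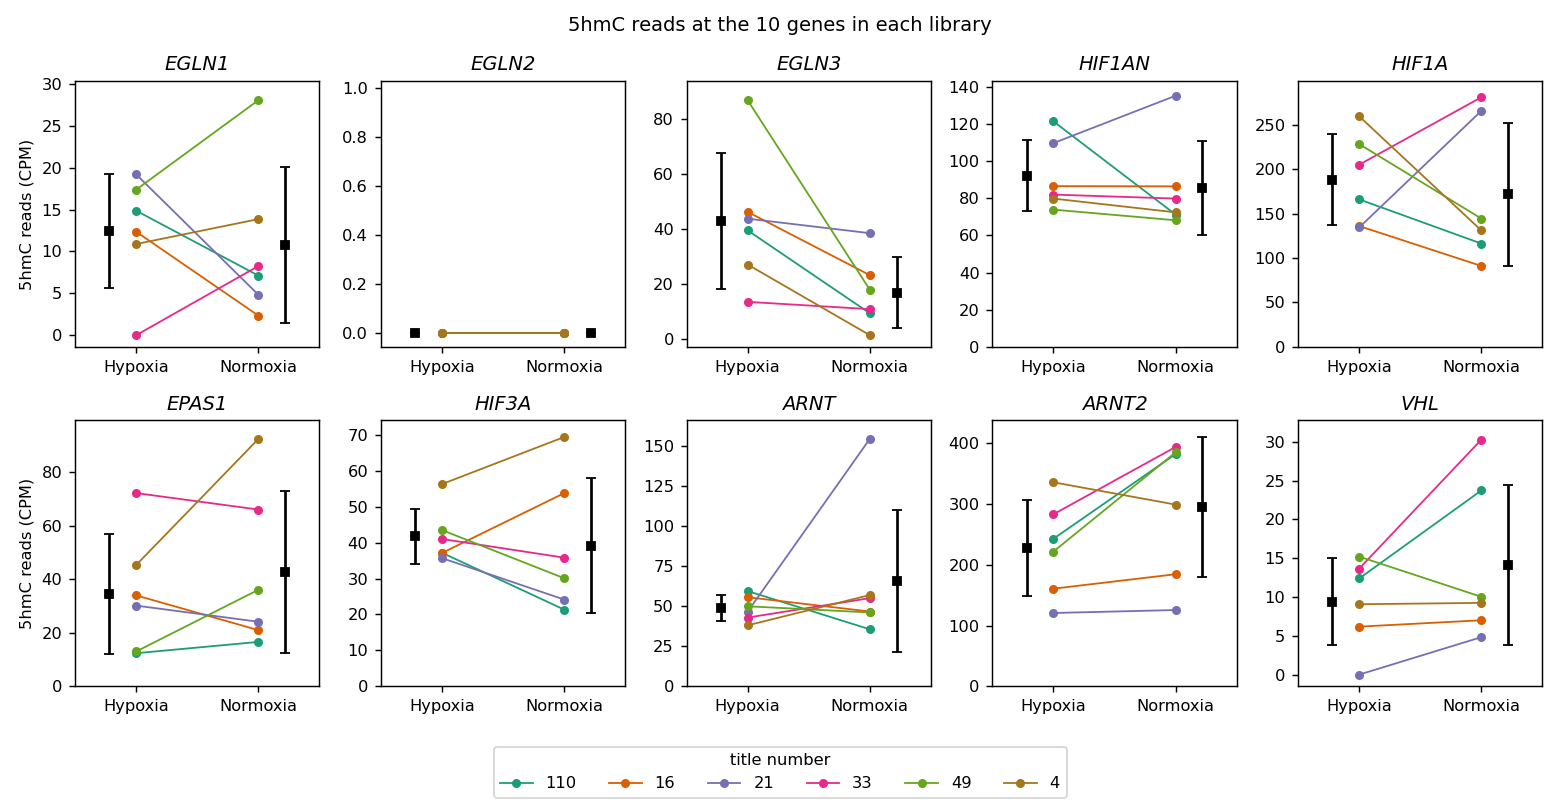
5hmC reads in CPM (vertical axes, linear and different for each gene) in each hypoxia (left) and normoxia (right) library, with a line joining the libraries that share a title number; black squares and bars are the group mean and SD (n = 6 each). All 6 lines of EGLN3 are higher at hypoxia, EGLN2 lies at 0 throughout, and the lines of the other genes run both ways.

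Among the hydroxylases, EGLN3 had 16, 15, 16, 7, 40 and 15 reads in the hypoxia libraries of numbers 110, 16, 21, 33, 49 and 4, against 4, 10, 8, 4, 9 and 1 read in the normoxia libraries of the same numbers. In CPM these were 39.6, 46.4, 43.9, 13.7, 86.9 and 27.2 in hypoxia, against 9.49, 23.4, 38.6, 11.01, 18.0 and 1.54 in normoxia. The groups overlapped: 4 hypoxia libraries lay above the highest normoxia library, number 21, while hypoxia 33 and 4 lay below it. The mean was 43.0 ± 24.8 CPM in hypoxia and 17.0 ± 13.0 CPM in normoxia (SD, n = 6 each). The log2 fold change was 1.49 ± 0.479 (SE), a fold of 2.81, with an edgeR unadjusted p of 0.00513 and an adjusted p of 1. With the block it was 1.51 ± 0.360, with an edgeR unadjusted p of 0.000202 and an adjusted p of 0.172. Of the 11868 tested genes, 1 had a larger log2 fold change in either fit and 13 had a smaller p in the blocked fit. Of all tested genes, 4.26% differed in one direction in 6 of 6 numbers, with 1.68% higher in hypoxia.

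The excess of EGLN3 reads was uneven over the numbers. On the log2(CPM + 1) scale the difference, hypoxia minus normoxia, was 3.47 in number 4, 2.21 in number 49, 1.95 in number 110, 0.96 in number 16, 0.29 in number 33 and 0.18 in number 21. Numbers 49 and 4 were sequenced in flow cell lane 8 per the file names, and the other 4 numbers in lane 7. Within lane 7 the log2 fold change was 0.88 ± 0.488 (SE, edgeR unadjusted p = 0.0888), and within lane 8 it was 2.63 ± 0.740 (unadjusted p = 0.00166), with adjusted p of 1 in both. The difference between lanes was not tested, and lane cannot be told apart from which numbers it holds. Number 21 had the smallest difference. The blocked fit without both its libraries called 12 of 12165 genes. EGLN3 was among them, at 1.82 on the log2 scale (edgeR adjusted p = 0.0248). Leaving out any other number gave 1.27 to 1.70 with adjusted p of 0.275 to 1.

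EGLN3 was a gene with few reads. Its mean level lay at percentile 14.1 of the tested genes, with 109 reads in all hypoxia libraries and 36 in all normoxia libraries. Counting error alone would give a coefficient of variation of 23.5% among hypoxia and 39.4% among normoxia libraries, and the observed values were 57.6 and 76.2%. The spread of EGLN3 thus exceeded counting error in both groups. The genes whose log2 CPM followed EGLN3 most closely over the 12 libraries were LOC110255445 (Pearson r = 0.90) and LOC110255654 (r = 0.90). These are the highest of all tested genes by construction and carry no test, and the 12 points share 6 title numbers.

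EGLN1, the prolyl hydroxylase that does most of the oxygen sensing in mammalian cells, had too few reads to be tested. It had 6, 4, 7, 0, 8 and 6 reads in hypoxia, against 3, 1, 1, 3, 14 and 9 reads in normoxia, in the same order of numbers. The group sums were 31 reads in hypoxia and 31 in normoxia, and the hypoxia library was higher in 3 of 6 numbers. The mean was 12.4 ± 6.83 CPM in hypoxia and 10.75 ± 9.33 CPM in normoxia (SD, n = 6 each). In the fit without a count filter its log2 fold change was 0.07 ± 0.543 (SE). A difference the size of that error was not detectable at this depth. EGLN1 kept no direction: its log2 fold change was 0.92 in lane 7 and -0.51 in lane 8.

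EGLN2, the third prolyl hydroxylase gene of the family, had 0 reads in all 12 libraries. A count of 0 allows up to 3 reads per library, which is 5.44 to 9.27 CPM in hypoxia and 4.62 to 14.5 CPM in normoxia, counting error only. EGLN2, by the RefSeq annotation of Sscrofa11.1, which may not be what the authors counted on, overlaps RAB4B and MIA. RAB4B also had 0 reads in all libraries, and MIA had 114 over all 12. Of all gene rows, 2002 (7.32%) had no read in any library. Among those that matched RefSeq, 83.4% of the 1774 rows without a read overlapped another gene, against 35.3% of the 24999 rows with a read. Whether the overlap accounts for the 0 at EGLN2 was not tested.

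HIF1AN, the asparaginyl hydroxylase gene, had the smallest coefficient of variation of the 7 tested genes in normoxia. It had 73.9 CPM at the lowest, 84.3 at the median and 121 at the highest in hypoxia, against 68.2, 76.1 and 135 CPM in normoxia. Of the normoxia libraries 3 lay below the lowest and 1 above the highest hypoxia library, and the hypoxia library was higher in 5 of 6 numbers, in number 16 by 0.0018 on the log2(CPM + 1) scale. The mean was 92.2 ± 18.9 CPM in hypoxia and 85.55 ± 25.2 CPM in normoxia (SD, n = 6 each), and the log2 fold change was 0.14 ± 0.237 (SE). The coefficient of variation was 20.5% in hypoxia and 29.5% in normoxia, where counting error gives 16.1 and 17.6%. Normoxia 21, at 135 CPM, stood apart from the other normoxia libraries, which reached at most 86.4 CPM.

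**Figure D2:**
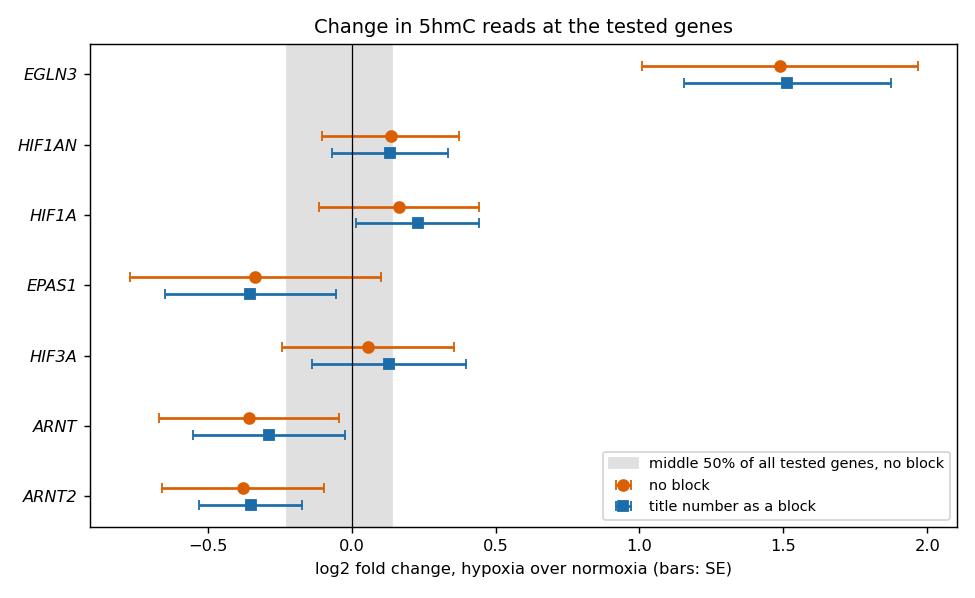
Log2 fold change of hypoxia over normoxia (horizontal axis, bars are the SE) for the 7 genes that passed the count filter, without (circles) and with (squares) the title number as a block; grey marks the middle 50% of all 11868 tested genes. EGLN3 lies at 1.49 and 1.51, and the other 6 genes between -0.38 and 0.23.

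Of the alpha subunits, HIF1A, which encodes the broadly expressed HIF1 alpha, was the best read, with 513 reads in hypoxia and 402 in normoxia. It had 134 CPM at the lowest, 185 at the median and 259.5 at the highest in hypoxia, against 91.1, 138 and 281 CPM in normoxia. The normoxia libraries reached both further down and further up: 2 lay above the highest hypoxia library (numbers 33 and 21) and 3 below the lowest. The mean was 188 ± 51.1 CPM in hypoxia and 172 ± 80.9 CPM in normoxia (SD, n = 6 each). The log2 fold change of 0.16 ± 0.277 (SE, edgeR adjusted p = 1) was smaller than its error. It was -0.19 ± 0.350 in lane 7 and 0.86 ± 0.414 in lane 8. In the blocked fit it was 0.23 ± 0.214 with all numbers. Leaving out 1 number at a time gave from 0.06 ± 0.215, without number 4, to 0.46 ± 0.188, without number 21. The latter had an edgeR unadjusted p of 0.0193 and an adjusted p of 0.393. Number 21 held the most negative HIF1A difference, and without it 1229 of 12165 genes had an unadjusted p under 0.05. The genes closest to HIF1A in pattern were LOC110255515 (r = 0.92) and ENPP3 (r = 0.88), over 12 libraries.

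EPAS1, which encodes HIF2 alpha, differed between title numbers more than between oxygen levels. It had 12.4 CPM at the lowest, 32.1 at the median and 72.2 at the highest in hypoxia, against 16.6, 30.1 and 92.5 CPM in normoxia. Both libraries of number 33 (72.2 CPM in hypoxia, 66.1 in normoxia) and of number 4 (45.4 and 92.5 CPM) lay above all other EPAS1 values. The mean over both libraries was 69.2 CPM for number 33 and 68.9 CPM for number 4, and 14.5 to 27.5 CPM for the other 4 numbers. The log2 fold change was -0.33 ± 0.437 (SE, edgeR adjusted p = 1), and hypoxia exceeded normoxia in 3 of 6 numbers. Without normoxia 4, which holds 60 of the 123 normoxia reads, it was 0.10. It was 0.26 ± 0.524 in lane 7 and -1.07 ± 0.579 in lane 8. Reads at EPAS1 per read at HIF1A in the same library, which no scaling can change, ran from 0.0571 to 0.352 in hypoxia and from 0.0909 to 0.706 in normoxia.

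HIF3A encodes the third alpha subunit, forms of which inhibit the other two. It had 35.7 CPM at the lowest, 39.1 at the median and 56.2 at the highest in hypoxia, against 21.4, 32.9 and 69.3 CPM in normoxia. All 6 hypoxia libraries lay within the range of the normoxia libraries. The mean was 41.8 ± 7.66 CPM in hypoxia and 39.1 ± 18.8 CPM in normoxia (SD, n = 6 each), and the log2 fold change 0.06 ± 0.300 (SE). The hypoxia libraries varied by 18.3%, under the 23.85% that counting error gives, and the normoxia libraries by 48%. In the RefSeq table HIF1A, EPAS1, HIF3A and ARNT each overlap 1 other gene, and whether reads were shared between them was not tested.

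Of the beta subunits, ARNT2 had 1421 reads in all, 626 in hypoxia and 795 in normoxia. ARNT is the general dimer partner of the alpha subunits, and ARNT2 its relative of mainly neural tissue. ARNT2 had 121 CPM at the lowest, 232 at the median and 336 at the highest in hypoxia, against 126, 341 and 394 CPM in normoxia. The hypoxia library was the lower one in 5 of 6 numbers, all but number 4, and the groups overlapped. In number 21 the difference was only -0.056 on the log2(CPM + 1) scale, on 44 reads in hypoxia and 26 in normoxia, so its sign rests on the scaling. The mean was 227 ± 78.6 CPM in hypoxia and 295 ± 115 CPM in normoxia (SD, n = 6 each). The log2 fold change was -0.38 ± 0.280 (SE, edgeR adjusted p = 1). It was -0.43 ± 0.372 in lane 7 and -0.25 ± 0.411 in lane 8. With the block it was -0.35 ± 0.180 (edgeR unadjusted p = 0.0598, adjusted p = 0.711). Leaving out 1 number at a time in the blocked fit gave from -0.255 ± 0.212, without number 49, to -0.474 ± 0.167, without number 4. The latter had an edgeR unadjusted p of 0.00962 and an adjusted p of 0.352. Without number 4, 1249 of 11680 genes had an unadjusted p under 0.05. Numbers 21 and 16 were low at ARNT2 under both oxygen levels, with means of 123 and 173 CPM over both libraries, against 303 to 338 CPM for the other 4 numbers.

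ARNT had 38.1 CPM at the lowest, 48.3 at the median and 59.5 at the highest in hypoxia, against 35.6, 50.9 and 154.5 CPM in normoxia. A single library, normoxia 21, held the highest value, and the other normoxia libraries ended at 57.0 CPM. The mean was 48.8 ± 7.94 CPM in hypoxia and 65.85 ± 44.1 CPM in normoxia (SD, n = 6 each), and the log2 fold change -0.36 ± 0.313 (SE). Without normoxia 21 it was 0.003. Within hypoxia the coefficient of variation of 16.3% was under the 22.1% of counting error.

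VHL, whose protein is the part of a ubiquitin ligase that recognises hydroxylated alpha subunits, also had too few reads to be tested. It had 5, 2, 0, 7, 7 and 5 reads in hypoxia, against 10, 3, 1, 11, 5 and 6 reads in normoxia, in the order 110, 16, 21, 33, 49 and 4. The hypoxia library was lower in 5 of 6 numbers, on sums of 26 reads in hypoxia and 36 in normoxia. In numbers 16, 21 and 4 this rested on 2 against 3, 0 against 1 and 5 against 6 reads. The difference in number 4 was -0.025 on the log2(CPM + 1) scale. The mean was 9.42 ± 5.65 CPM in hypoxia and 14.2 ± 10.3 CPM in normoxia (SD, n = 6 each). Without the count filter the log2 fold change was -0.52 ± 0.506 (SE), about its own error, and it was -1.01 in lane 7 and 0.36 in lane 8.

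**Figure D3:**
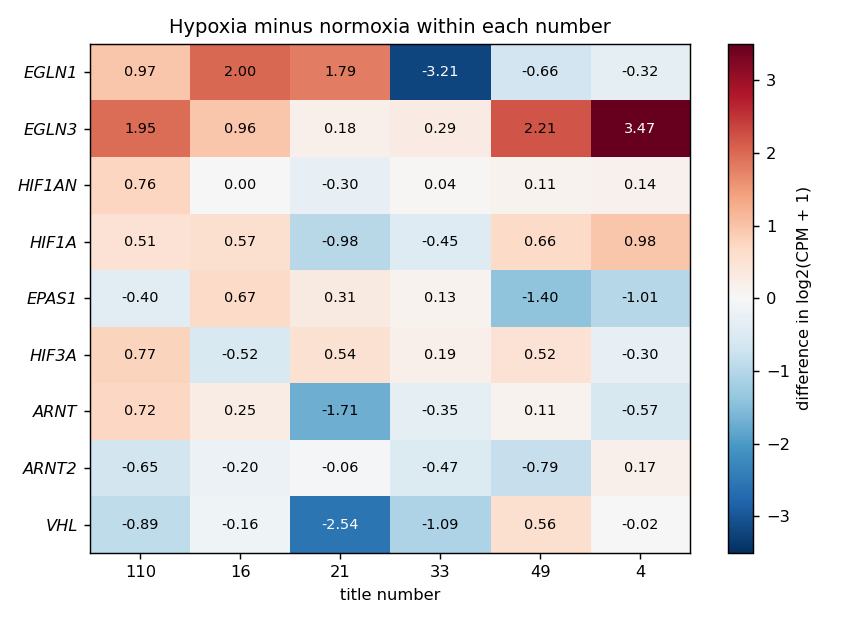
Difference between the hypoxia and the normoxia library of each title number (columns) on the log2(CPM + 1) scale for the 9 genes with reads (rows); red is higher in hypoxia and blue lower. The EGLN3 row is positive throughout, from 0.18 to 3.47, and the large values of EGLN1 and VHL rest on 0 to 14 reads.

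Set out by title number, the genes differed in direction within the same library pair. HIF1A was higher in hypoxia in numbers 110, 16, 49 and 4, by 0.51 to 0.98 on the log2(CPM + 1) scale, and the EGLN3 differences of these 4 numbers were 0.96 to 3.47. In numbers 21 and 33 the HIF1A differences were -0.98 and -0.45 and those of EGLN3 0.18 and 0.29. This arrangement was noticed after the values were seen and was not tested, and values of 1 library share its scaling. Over the 12 libraries HIF1A and EGLN3 correlated at r = 0.23 on this scale. The correlations of EGLN3 with the other tested members ran from -0.67 (EPAS1) to 0.46 (HIF1AN). In number 21 the difference was -1.71 at ARNT and -2.54 at VHL, the VHL value on 0 reads in hypoxia and 1 in normoxia. In number 33 it was -3.21 at EGLN1, on 0 reads in hypoxia and 3 in normoxia.

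**Figure D4:**
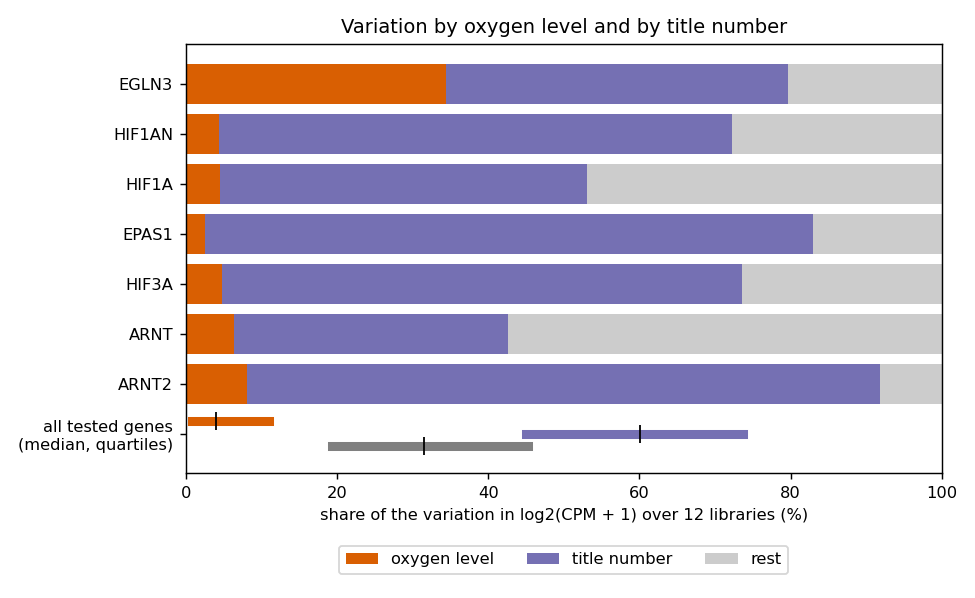
Share of the variation in log2(CPM + 1) over the 12 libraries (horizontal axis, %) that lies between oxygen levels, between title numbers and in the rest, for the 7 tested genes; the bottom rows give the quartiles (bars) and median (tick) of each share over all 11868 tested genes. Oxygen level takes 34.4% at EGLN3 and 2.57 to 8.15% at the other 6 genes, and title number 83.6% at ARNT2.

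The variation of each gene was divided between oxygen level, title number and the rest. With 1, 5 and 5 of 11 degrees of freedom, values without any structure would give mean shares of about 9.09, 45.5 and 45.5%. A share on 1 degree of freedom has a median below its mean, so the median for oxygen level cannot be set against 9.09%. Over all tested genes the median shares were 4.06% for oxygen level, 60.1% for title number and 31.55% for the rest. At ARNT2 title number took 83.6% and at EPAS1 80.4%, at percentiles 90.0 and 85.7 of all genes. At HIF3A (68.7%) and HIF1AN (67.9%) it was nearer the median, at HIF1A 48.6%, and at ARNT, where 1 library stood out, 36.2%. At EGLN3 title number took 45.3% and oxygen level 34.4%, which stood at percentile 97.3 of all genes. These shares are descriptions and carry no test.

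Around these genes, other parts of the pathway were read from 4 lists. Over all tested genes 43.4% lay above 0 without the block, with a median log2 fold change of -0.04, and 46.6% with it. Of 17 genes of the VHL ligase and of HIF stability, 9 could be tested, of which 1 lay above 0 and 8 below. Their median log2 fold change was -0.26 without and -0.16 with the block. USP20, a deubiquitinase that acts on HIF1 alpha, had 24.55 ± 8.79 CPM in hypoxia and 34.3 ± 20.0 CPM in normoxia (SD, n = 6 each), and its log2 fold change was -0.55 ± 0.368 (SE). Its relative USP33 had -0.39 ± 0.320. These were the genes of smallest p without the block. With it, 1 gene of the list had an unadjusted p under 0.05 in edgeR's test: OS9, named after its values were seen. It had -0.60 ± 0.228 (edgeR unadjusted p = 0.0128, adjusted p = 0.594) and was lower in hypoxia in 6 of 6 numbers. Of all tested genes, 4.49% had such a p with the block and were lower, and 4.26% differed in one direction in 6 of 6 numbers. Of 12 coactivators and CITED antagonists, 8 were tested, with 1 positive and 7 negative and a median of -0.13, and the nuclear receptor coactivators NCOA3 and NCOA2 had -0.28 ± 0.207 and -0.20 ± 0.205. Of 11 other bHLH-PAS factors, the family to which HIF belongs, 10 were tested, with 3 positive and 7 negative and a median of -0.20. NPAS3, a neuronal member, had 45.7 ± 5.17 CPM in hypoxia and 33.7 ± 8.74 CPM in normoxia, with 0.44 ± 0.259. It was higher in hypoxia in 6 of 6 numbers, as were 1.68% of all tested genes. SIM2 had -0.33 ± 0.276. No gene of these 3 lists passed the test, in either fit, and HSP90AA1 of the first list had no read.

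Of 52 listed HIF target genes, 36 could be tested, of which 25 lay above 0 and 11 below, with a median log2 fold change of 0.26, beside 43.4% positive and a median of -0.04 over all tested genes. With the block 28 lay above 0 and 8 below, beside 46.6% above 0 over all tested genes. None passed the test in either fit. At an unadjusted p under 0.05 in the blocked fit stood 9 that were higher in hypoxia, against 2.6% of all tested genes, and 1 that was lower, against 4.49%. Both background shares move with the scaling. In the fit without the block, the smallest p of the list belonged to LDHA, the lactate dehydrogenase of anaerobic glycolysis, with a log2 fold change of 1.21 ± 0.367 (SE), and NDRG1, a stress-response gene, with 0.73 ± 0.289. The list was chosen with results of these libraries known, so its direction is no independent evidence.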

How the data were processed

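The authors deposited 1 table of raw HTSeq read counts per gene symbol for each library. Bowtie2, Picard, HTSeq, MACS2 and edgeR are named, without versions, in the submitters' processing notes. Neither the genome build nor the annotation, counted feature or strand setting is given in the sources used here. Counts over exons would miss 5hmC in introns. The peak lists name no build, could not be placed at genes, and were not used here, nor was the input sample. HTSeq's rows for unassigned reads were dropped: 88.0 to 93.0% of reads lay outside any feature, 4.12 to 10.3% had low alignment quality and 0.0050 to 0.0095% were ambiguous.

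All 12 libraries entered 1 fit per design of edgeR 4.0.16 (R 4.3.3), with TMM scaling, glmQLFit and the two-sided glmQLFTest, at an adjusted p threshold of 0.05. The filter was filterByExpr, with min.count 10 and min.total.count 15. Each SE was computed as the log2 fold change divided by the square root of F. Members failing the filter were read from a fit without it. The test was also run on simulated counts that held no title-number effect, so that run does not show how it performs on these libraries. Alternatives were other scalings, no filter, DESeq2 1.42.0, lane, left-out libraries and the replicate block.

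The title numbers were taken to pair the libraries: after removal of group means, those sharing a number correlated across 11868 genes at 0.13 (number 4) to 0.46, all above the threshold of 0.1. Only in 4 of these numbers, not in all, was each library's best match in the other group the one of its own number. Number 4, with the lowest correlation, also held the largest EGLN3 difference. The pairing rests on the leading number of each title. Every one of the 66 library pairs differed by more than sampling noise, with a chi-square of 1.26 or more for each degree of freedom.

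All 10 members are named, with the 2 genes of smallest p from each context list and the 2 genes closest in pattern to EGLN3 and to HIF1A. The members and lists were chosen with earlier results of these data known. Summaries were made with Python 3.11.15 and pandas 2.3.3.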

Additional observations from a re-analysis of the deposited data

Results flagged for a closer look

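Among the 18 sets of 6 libraries checked (9 genes with reads, 2 groups), 2 held a library far from the other 5, where chance flags about 1 in 20 sets. Both were the normoxia library of number 21, the one with the fewest gene reads. This library also had the lowest share of reads in genes (1.69%), the highest share of low alignment quality (10.3%) and the lowest TMM factor (0.889). It had 155 CPM at ARNT, where the other normoxia libraries had 35.6 to 57.0 CPM. It had 135 CPM at HIF1AN, where the others had 68.2 to 86.4 CPM. Without it the log2 fold change of hypoxia over normoxia was 0.003 at ARNT and 0.28 at HIF1AN, against -0.36 and 0.14 with it. Whether the quality of this library bears on these values was not tested.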

How the results depend on the processing

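Of 268 recomputed log2 fold changes of the 9 genes with reads, 245 kept their direction and their side of the threshold, 22 changed sign and 1, EGLN3, became a call. EGLN3, ARNT2 and HIF1AN kept their direction under every alternative run, EGLN3 between 0.88 and 2.63. Without each library in turn, EGLN3 ran from 1.14 to 1.78, EPAS1 from -0.70 to 0.10, HIF3A from -0.06 to 0.33, ARNT from -0.46 to 0.003, EGLN1 from -0.14 to 0.62, HIF1A from 0.05 to 0.40, HIF1AN from 0.05 to 0.28, ARNT2 from -0.53 to -0.24 and VHL from -0.70 to -0.19. In lane 7 alone HIF1A (-0.19; with the replicate block -0.10) and EPAS1 (0.26; 0.21) changed sign, and in lane 8 alone EGLN1 (-0.51) and VHL (0.36). In the fit with the replicate block, leaving out both libraries of a number gave -0.44 to 0.015 for ARNT and -0.12 to 0.47 for EGLN1. The cause of these changes was not tested. The replicate block moved the number of genes called from 0 to 4. Leaving out both libraries of a number gave 0 to 12 genes and 0 to 1 member (EGLN3, without number 21), and lane 7 with the block gave 0 genes, on 8 libraries. DESeq2 called 0 genes, and its Wald test put 512 of 25337 unfiltered genes at an unadjusted p under 0.05. For edgeR the number was 694 over the same 25337 genes, and 324 over the 11868 kept by the filter. Library size as the only scaling moved the split of genes at an unadjusted p under 0.05 from 109 higher and 215 lower to 159 higher and 123 lower, with the block from 308 higher and 533 lower to 468 higher and 371 lower, and changed the sign of no member. EGLN1 and VHL, with 31 or fewer hypoxia reads each, are limited by depth, and whether depth or counting gives the 0 at EGLN2 was not tested. The alternatives with the block under library size, DESeq2 size factors and lane 7 were chosen after seeing the data.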
